A study of Arabidopsis thaliana with 6 samples.

Results

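The arrays carried 162 probes for 74 miRNA precursors of Arabidopsis thaliana whose family numbers are above that of MIR408, out of 15013 probes under 5154 transcript names. Members were taken by name alone: every probe that was not a control and whose transcript name began with ath-MIR and went on with such a number. miRNA families were numbered in the order of their discovery, so the high numbers hold mostly families that were cloned late and that are found in few plant species. The 99 precursors with lower numbers (169 probes) hold most of the families conserved across land plants.

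A plant miRNA gene is transcribed by RNA polymerase II into a primary transcript that folds back on itself, and the nuclease DCL1 cuts the hairpin into the mature miRNA. Many young families form longer, better paired hairpins, some of which are cut by DCL4 in place of DCL1. RDR2 (RNA-DEPENDENT RNA POLYMERASE 2) copies RNA polymerase IV transcripts into double strands, from which DCL3 cuts the small interfering RNAs that direct DNA methylation. A miRNA hairpin needs no such copying. The probes read primary or precursor RNA, not the mature miRNA, and their position and strand within each precursor are not given in the sources used here.

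Inflorescences of an rdr2 mutant (3 samples) were compared with those of the wild type, WT (3 samples). All plants were of the Col-0 ecotype, were 4 weeks old and were grown on MS medium or in the greenhouse, and each sample pooled open flowers, buds and some very young siliques. The sample titles give the mutant without an allele, the protocols name rdr2-1, and a genotype field numbers the allele rdr2-1, rdr2-2 and rdr2-3 in replicates 1 to 3, so the 3 samples were taken as 1 group, as titled. The series design text calls the samples of each group biological replicates. In such bulk tissue, fewer cells of a type and less RNA per cell cannot be told apart. Values are scaled signals, in which each array's 75th percentile, taken on 2369 probes that every array detected well above background, was set to 100. Probes differ in sequence and binding, so a level was compared between arrays and never between probes.

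The 3 probes of RDR2 itself were lower in rdr2 (log2 differences of -2.69, -2.73 and -2.63). The rdr2 arrays were dimmer: their 75th percentile intensities were 162, 155 and 285, against 367, 305 and 371 on the WT arrays. Replicates 1 and 2 of each group shared a slide and replicate 3 had another, so each slide held 1 group. The labelled organ could not be checked, because none of the 22 organ markers outside the seed list was on the array. All 4 seed genes listed were on it. Of their 9 tested probes, 5 were lower in rdr2, against 8.49% of all probes tested, and none was higher. These 5 were probes of FUS3 and EM1. LEC1 (log2 differences of -0.08, -0.04 and -0.06) and ABI3 (-0.84 on its tested probe) had no call. The part of seed tissue in the results below was not tested.

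In rdr2 inflorescences, 24 of the 74 high-numbered precursors (32.4%) had a probe well above background on all 3 arrays. In WT inflorescences 33 (44.6%) did, and they included all 24. The 9 that met this in WT only were MIR472, MIR771, MIR783, MIR823, MIR830, MIR832, MIR850, MIR851 and MIR852, and no precursor met it in rdr2 only. The share was also lower in rdr2 for the low-numbered precursors (43.4% in rdr2 and 56.6% in WT) and for all transcript names (24.6% in rdr2 and 35.6% in WT). By array, 52, 48 and 71 of the 162 probes were well above background in rdr2 replicates 1 to 3, against 77, 72 and 68 in WT replicates 1 to 3. For these probes the brightest rdr2 array thus lay within the range of the WT arrays, and the 2 dim arrays lay below it. For the low-numbered precursors the brightest rdr2 array also lay below the WT arrays (47.9%, against 50.9% to 62.7%).

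**Figure D1:**
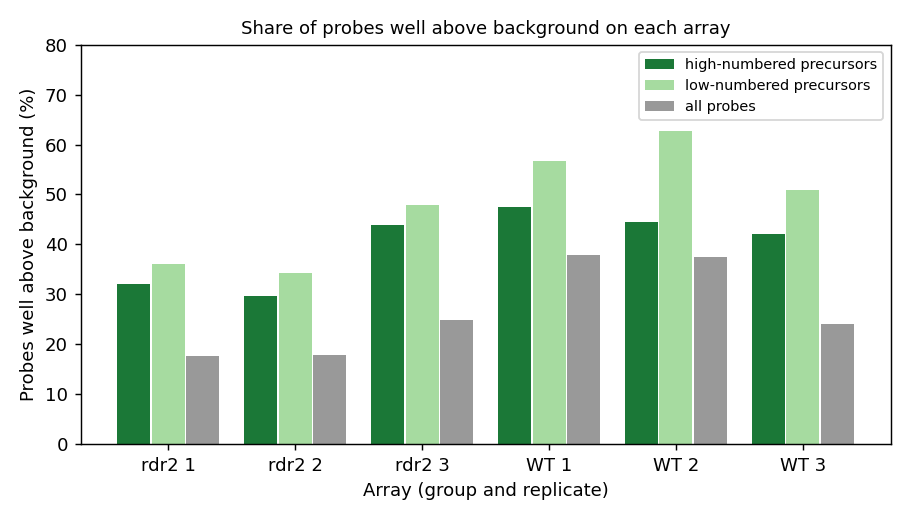
Share of probes well above background on each array (percent, y axis) for the high-numbered precursors, the low-numbered precursors and all probes, with rdr2 arrays left of WT arrays. In each class rdr2 replicates 1 and 2 are the lowest points, at 32.1% and 29.6% for the high-numbered precursors, against 42% to 47.5% on the WT arrays.

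Among the other 41 precursors, 15 were well above background on some arrays only. MIR773 was detected on 3 arrays, MIR420, MIR447c, MIR849, MIR861, MIR862 and MIR869 on 2, and MIR781, MIR782, MIR831, MIR836, MIR845b, MIR853, MIR856 and MIR868 on 1. A further 26 were detected on none: MIR417, MIR426, MIR774, MIR777, MIR778, MIR827, MIR829, MIR837, MIR838, MIR841, MIR842, MIR843, MIR845a, MIR847, MIR857, MIR859, MIR863, MIR864, MIR865, MIR866, MIR867, MIR870, MIR1886, MIR1888, MIR2111a and MIR2111b. This group includes MIR827 and both MIR2111 precursors, whose miRNAs are known to accumulate under phosphate starvation, and MIR857, whose miRNA targets a laccase mRNA. It also includes MIR838, which lies in an intron of DCL1, although all 3 DCL1 probes were well above background on every array. Undetected precursors often had a single probe: 9 of the 26 had 1 probe, against 4 of the 33 detected throughout WT.

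Detected and undetected precursors also differed in their place in the annotation. Of the 74 names, 67 were found in the RefSeq gene table of assembly TAIR10.1. Of these, 31 (46.3%) overlapped another annotated gene. The share was 63.3% (19 of 30) among precursors detected on all 3 WT arrays and 30.4% (7 of 23) among those detected on no array. The table gives no strand, and whether RNA of the overlapping gene reached the probes was not tested.

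Levels could be compared between the groups for 64 probes of 33 precursors, those that every array of either group, or of both, detected well above background. Their WT means ran between 1.502 and 669.8, with 4 probes above 100, 28 between 10 and 100 and 32 below 10. Of the 64 probes, 10 (15.6%) passed the threshold of adjusted p 0.05 in limma, against 13.6% of all 3345 probes tested, so the share was near the background. Probes higher in rdr2 numbered 4 (6.25%, against 5.11% of all probes) and probes lower in rdr2 numbered 6 (9.38%, against 8.49%). The 10 probes belonged to 6 precursors: MIR775 and MIR825 rose, and MIR840, MIR835, MIR860 and MIR783 fell. In the low-numbered precursors, 1 probe was higher and 4 were lower of 77 tested (6.49%); this difference in share was not tested.

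The median log2 difference of the 64 probes was -0.28, against -0.26 over all probes tested, a gap of -0.02. Differences were negative for 50 probes and positive for 14, against 2317 and 1028 of all 3345 probes tested, and ran between -1.53 and 1.31. Of the 64 probes, 13 were well above background on 1 or 2 rdr2 arrays and 3 on none. In WT, 1 probe was well above background on 1 or 2 arrays. Such probes entered the test through the other group alone, which favours a difference toward that group. The groups did not overlap in 21 of the 64 probes (32.8%), against 38.8% of all probes. The balance of calls depended on the scaling. Quantile normalization, which moved the median of all probes to -0.02, gave 2 precursor probes higher and 5 lower. The authors' deposited values gave 2 and 3, and their median of all probes was also -0.02. Scaling on the 75th percentile of all probes, which put the median at 0.35, left 1 higher and 0 lower. Median scaling (median -0.17) gave 4 and 6, and normexp background correction (median 0.10) gave 0 and 0. Calls over all probes tested made up 9.51% with quantile normalization, 9.24% in the deposited values and 4.81% with the percentile of all probes. They made up 11.3% with median scaling and 2.39% with normexp.

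The number of calls also changed when single arrays were left out and when the slide was a random block. Leaving out rdr2 replicate 1 left 1 probe higher and 0 lower, and leaving out rdr2 replicate 2 left 2 and 0. Without WT replicate 1, and likewise without WT replicate 2, 1 was higher and 0 lower. Without rdr2 replicate 3, 5 were higher and 10 lower, and without WT replicate 3, 4 and 9. Calls over all probes tested moved too, from 13.6% with all arrays. They made up 5.38% without rdr2 replicate 1, 5.23% without rdr2 replicate 2, 5.14% without WT replicate 1 and 4.54% without WT replicate 2. Without rdr2 replicate 3 they made up 21.6%, and without WT replicate 3 28.6%. With the slide as a random block, 0 precursor probes passed in limma in either direction, although 4 higher and 6 lower had an unadjusted p under 0.05, and 57 of all probes were still higher and 55 lower. No precursor below therefore has a call once arrays of a slide are treated as related. MIR775 and the others are described from the fit without the slide.

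**Figure D2:**
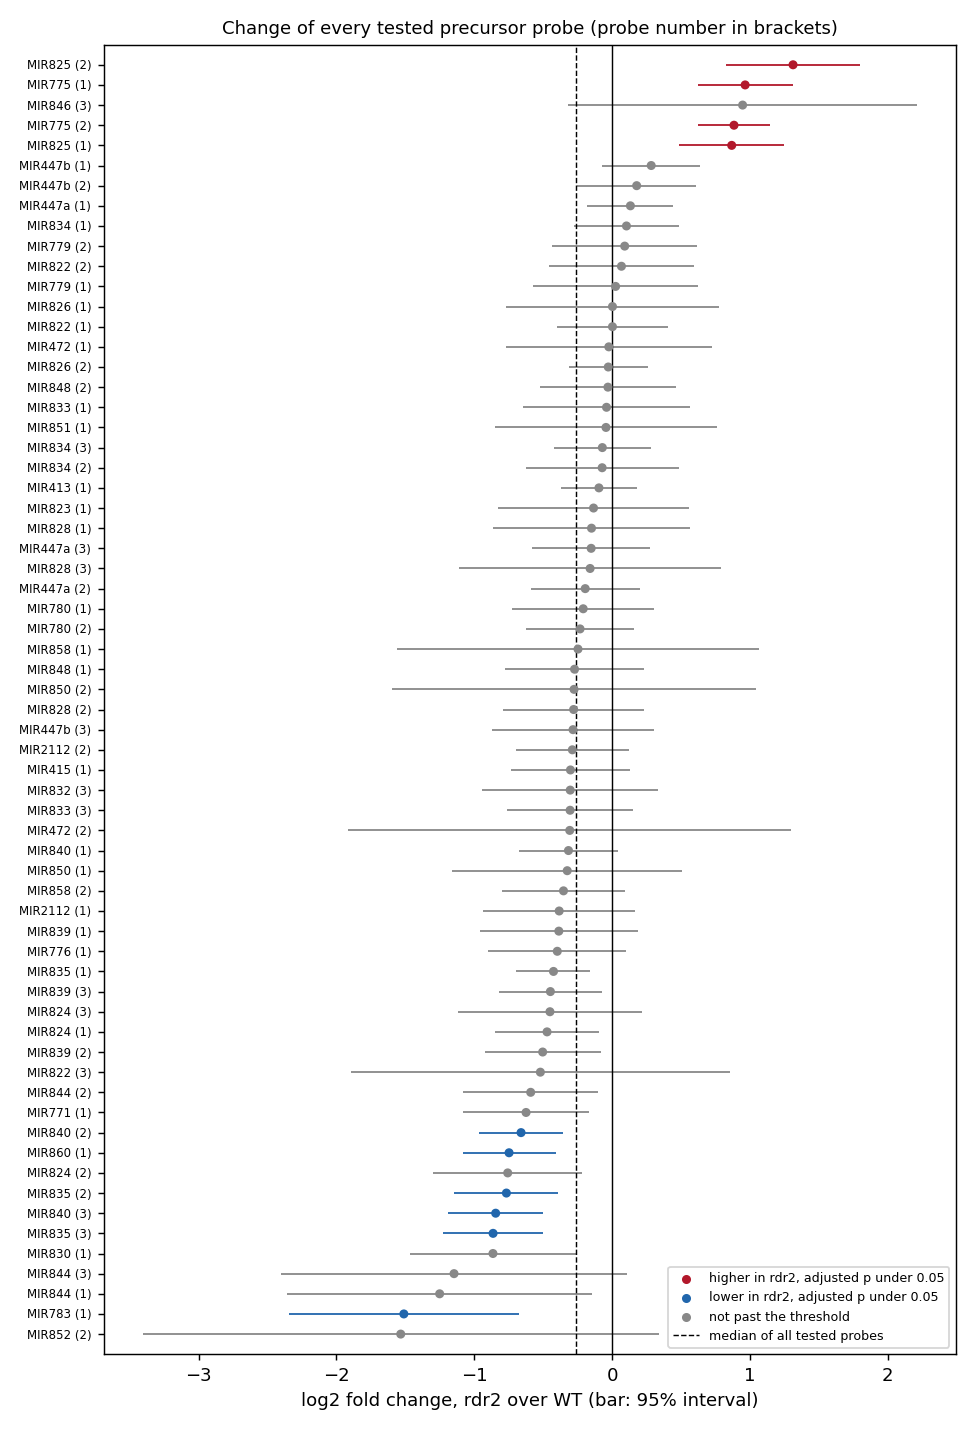
Log2 difference, rdr2 minus WT (x axis), of the 64 tested precursor probes (rows), with 95% intervals from limma; the dashed line is the median of all probes tested, -0.26. The 10 probes past the threshold lie to both sides, and most other points lie near the dashed line.

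The precursor that rose with the smallest p was MIR775 (AT1G78206, chromosome 1), whose miRNA targets the mRNA of a galactosyltransferase. Its first probe had scaled signals of 48.4, 42.8 and 51.8 in rdr2, against 25.5, 25.9 and 21.9 in WT. Its second probe had 49.4, 50.1 and 47.8 in rdr2, against 26.8, 27.2 and 25.7 in WT. On both probes every rdr2 array lay above every WT array, with little spread: the second averaged 49.1 ± 1.19 in rdr2 and 26.6 ± 0.785 in WT (SD, n = 3 each). The log2 differences were 0.97 (SE 0.139, limma adjusted p 0.0112) and 0.88 (SE 0.106, limma adjusted p 0.00658), or 1.95-fold and 1.85-fold higher in rdr2. The second was 1.14 above the median of all probes. The call held with each array left out in turn, at adjusted p between 0.0089 and 0.0438. With the slide as a random block the adjusted p was 0.0510, at a log2 difference of 0.89. Without the 2 dimmest arrays, rdr2 replicates 1 and 2, only 1 rdr2 array is left, and the log2 difference was 0.85. No other annotated gene overlaps MIR775.

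MIR825 (AT2G26211, chromosome 2) also rose, at a low level near the background. miR825 is known to target immune receptor mRNAs, and its precursor overlaps the pseudogene AT2G26220. Its first probe had 5.47, 5.75 and 4.80 in rdr2, against 2.60, 2.83 and 3.38 in WT, a log2 difference of 0.87 (limma adjusted p 0.0212). Its second had 4.31, 4.05 and 2.94 in rdr2, against 1.32, 1.51 and 1.67 in WT, where it was well above background on 1 array. The groups were apart on both probes, and the second differed by 1.31 on the log2 scale (SE 0.195, limma adjusted p 0.0120), or 2.49-fold. This second probe entered the test through detection in rdr2 alone, which by itself favours a rise. The adjusted p of the second probe was 0.0554 without rdr2 replicate 1, 0.0593 without rdr2 replicate 2, 0.0591 without WT replicate 1 and 0.0652 without WT replicate 2. With the slide as a random block it was 0.0781, at a log2 difference of 1.21. With normexp background correction the difference was 0.37 and its adjusted p 0.979. MIR472, the other precursor here whose miRNA targets immune receptor mRNAs of the NLR class, had log2 differences of -0.02 and -0.31, neither past the threshold.

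**Figure D3:**
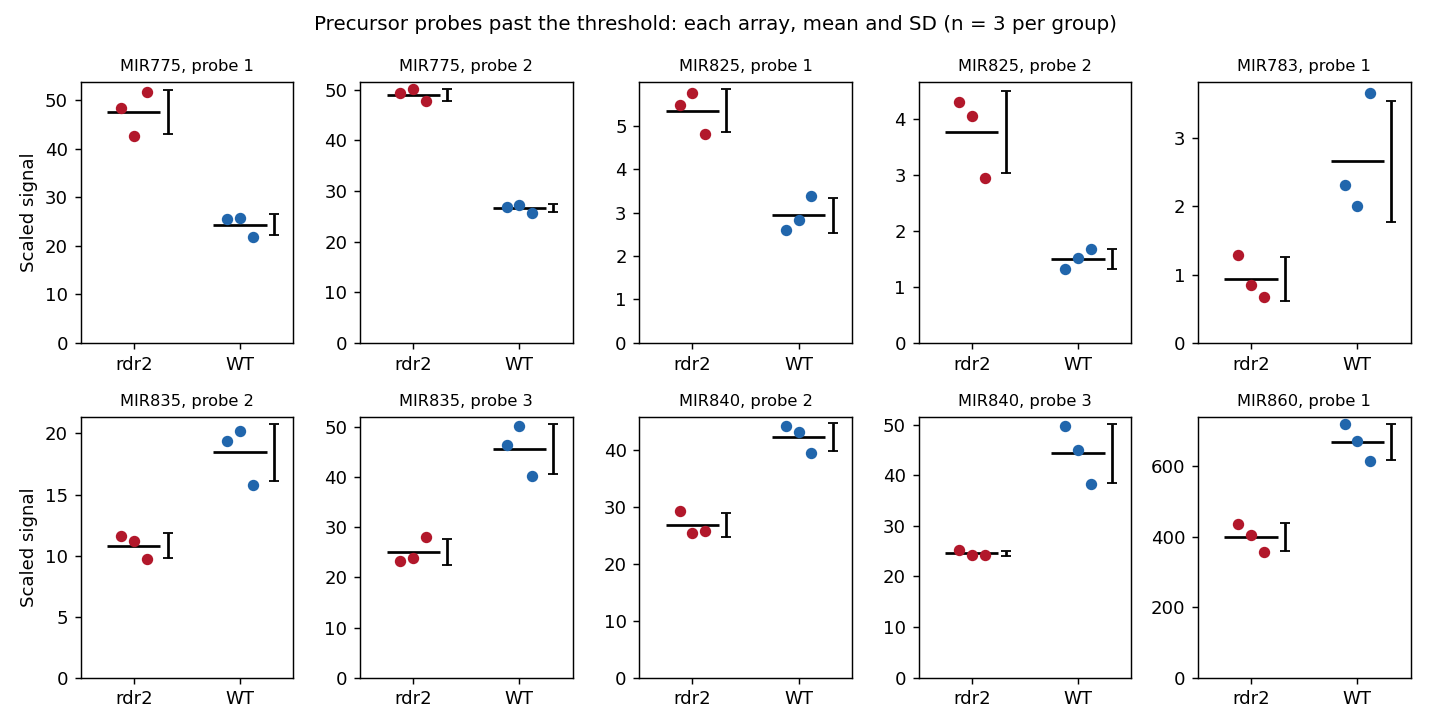
Scaled signal on each array (y axis) of the 10 probes past the threshold, 1 panel per probe, with rdr2 left of WT; points are arrays, and bars are the mean and SD of 3 arrays. The MIR775 and MIR825 probes are higher on every rdr2 array than on any WT array, and the probes of MIR840, MIR835, MIR860 and MIR783 are lower.

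Among precursors that fell, MIR840 (AT2G02741, chromosome 2) gives a miRNA that pairs with the mRNA of WHIRLY3, a plastid DNA-binding protein. Its probe 3 had 25.2, 24.2 and 24.3 in rdr2, against 49.9, 45.0 and 38.3 in WT. Its probe 2 had 29.2, 25.3 and 25.7 in rdr2, against 44.1, 43.1 and 39.4 in WT. Both sets of arrays were apart, and the log2 differences were -0.84 (SE 0.140, limma adjusted p 0.0174) and -0.66 (limma adjusted p 0.0251). Probe 1 had 40.4, 37.6 and 47.3 in rdr2, against 55.2, 53.8 and 46.6 in WT, and did not pass (-0.32, limma adjusted p 0.191). MIR840 overlaps AT2G02750 and the long noncoding RNA AT2G04295 in the annotation.

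MIR835 (AT1G76062, chromosome 1), which overlaps AT1G76065, showed a like pattern over its 3 probes. Probe 3 had 23.3, 23.8 and 28.03 in rdr2, against 46.3, 50.1 and 40.2 in WT. Probe 2 had 11.6, 11.2 and 9.70 in rdr2, against 19.4, 20.2 and 15.8 in WT. Neither probe's groups overlapped, and the log2 differences were -0.86 (SE 0.147, limma adjusted p 0.0193) and -0.77 (limma adjusted p 0.0297). Probe 1 stood at -0.42 (limma adjusted p 0.0576), just outside the threshold.

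MIR860 (AT5G26038, chromosome 5), with 1 probe, overlaps FC1, which encodes a ferrochelatase of haem synthesis. The probe had 436.3, 405.5 and 357.1 in rdr2, against 720.5, 672.4 and 616.4 in WT. It averaged 399.6 ± 39.9 in rdr2 and 669.8 ± 52.1 in WT (SD, n = 3 each), or 1.68-fold lower in rdr2 (log2 difference -0.75, SE 0.136, limma adjusted p 0.0228). Every rdr2 array was below every WT array.

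The calls of MIR840, MIR835 and MIR860 were lost when rdr2 replicate 1, rdr2 replicate 2, WT replicate 1 or WT replicate 2 was left out, at adjusted p (for the probe with the smallest p) of 0.0726 to 0.0879 for MIR840, 0.0804 to 0.0898 for MIR835 and 0.0684 to 0.106 for MIR860. With the slide as a random block the log2 differences were close to those above, at -0.81 for MIR840, -0.79 for MIR835 and -0.76 for MIR860, while the adjusted p was 0.123, 0.126 and 0.135.

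MIR783 fell on a probe near the background. Its first probe had 1.29, 0.851 and 0.668 in rdr2, on no array well above background, against 2.32, 2.00 and 3.66 in WT. As a bound, the level was at least 1.24-fold lower in rdr2, and the groups did not overlap. The limma adjusted p of 0.0410 belongs to the log2 difference of -1.51 from the signals themselves, not to this bound. MIR783 entered the test through detection in WT alone, which by itself favours a fall. Its other probes were well above background in neither group throughout. Without WT replicate 3 the call held (adjusted p 0.0398), while leaving out any of the other 5 arrays ended it (adjusted p 0.0554 without rdr2 replicate 1, 0.137 without rdr2 replicate 2, 0.0635 without rdr2 replicate 3, 0.115 without WT replicate 1 and 0.0898 without WT replicate 2). The sign turned to 0.10 with normexp background correction.

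The next 6 precursors by p did not pass. MIR824, whose miRNA targets the MADS-box gene AGL16, had 4.89, 5.39 and 4.62 in rdr2 on its second probe, against 10.4, 9.02 and 6.25 in WT (log2 difference -0.76, limma adjusted p 0.0762). Its groups did not overlap there or on its first probe, which stood at -0.47 (limma adjusted p 0.0975). MIR844, whose miRNA targets CDS3, a CDP-diacylglycerol synthase, stood at -1.25, -0.59 and -1.15 on its 3 probes (limma adjusted p 0.119, 0.105 and 0.177). Its probes 1 and 3 were each well above background on 1 rdr2 array, and their groups overlapped. MIR771 had 2.17, 1.88 and 2.72 in rdr2, on 1 array well above background, against 3.47, 3.82 and 3.06 in WT (limma adjusted p 0.0804). Probe 1 of MIR830 had 1.66, 1.66 and 1.49 in rdr2, on no array well above background, against 2.90, 3.97 and 2.13 in WT (limma adjusted p 0.0722). Probe 2 of MIR852 had 3.06, 2.103 and 0.410 in rdr2, again on no array well above background, against 3.65, 4.00 and 4.39 in WT, and its adjusted p was 0.214 in limma. The MIR852 arrays of the groups did not overlap, but its rdr2 arrays were spread over more than its WT arrays. Some alternatives brought MIR824, MIR830, MIR844 and MIR771 past the threshold, and others turned signs. Without WT replicate 3, the adjusted p in limma was 0.0115 for MIR824, 0.0148 for MIR830 and 0.0480 for MIR844. Without rdr2 replicate 3 it was 0.0334 for MIR771. Without the 2 dimmest arrays, which leaves 1 rdr2 array at a signal of 0.410, the log2 difference of MIR852 was -3.29. With normexp background correction the log2 difference was positive for MIR830 (0.18), MIR824 (0.029), MIR771 (0.23), MIR844 (0.11) and MIR852 (0.16). It was also positive for MIR771 with quantile normalization (0.093) and in the authors' deposited values (0.094), and for MIR844 with the 75th percentile of all probes (0.022).

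MIR839 and MIR822 give miRNAs that DCL4, not DCL1, is known to cut. MIR839 stood at -0.39, -0.50 and -0.45 on its 3 probes (limma adjusted p 0.286, 0.107 and 0.106). Its probe 3 had 15.9, 14.2 and 12.8 in rdr2, against 21.9, 17.6 and 19.1 in WT, with no overlap. MIR822 had 26.3, 21.7 and 25.5 in rdr2, against 28.8, 22.8 and 22.1 in WT on probe 1, with a log2 difference of 0.00 (95% interval -0.40 to 0.40). Probes 2 and 3 were at 0.07 and -0.52, none past the threshold. The difference between MIR839 and MIR822 was not tested.

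MIR842 and MIR846 lie next to each other on chromosome 1 and give miRNAs against jacalin-lectin mRNAs by splicing of a shared transcript. MIR842 was detected on no array. Probe 3 of MIR846 had 32.3, 41.5 and 10.8 in rdr2, against 12.1, 12.5 and 13.3 in WT. The 2 high rdr2 arrays share a slide and the other one lay below all WT arrays. The log2 difference of 0.95 had a 95% interval of -0.32 to 2.21 and an adjusted p of 0.244 in limma. Without rdr2 replicate 3 the difference was 1.53 and its adjusted p 0.00797. Without the 2 dimmest arrays, which leaves 1 rdr2 array, the difference was -0.22. Its other probes were at 1.14 or lower on every array.

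No precursor of the other groups passed. The miRNAs of MIR828 and MIR858 target MYB transcription factors of the flavonoid pathway: MIR828 stood at -0.15, -0.28 and -0.16, and MIR858 at -0.25 and -0.35. Of the precursors whose miRNAs target chromatin enzymes, MIR823 (the DNA methyltransferase CMT3) stood at -0.13, MIR773 (the DNA methyltransferase gene MET2) was not testable and MIR778 (the histone methyltransferases SUVH5 and SUVH6) was detected nowhere. MIR447a, of the family that targets 2-phosphoglycerate kinase, stood at 0.13, -0.19 and -0.15, and MIR447b at 0.28, 0.18 and -0.28. MIR780, whose miRNA targets the cation exchanger CHX18, stood at -0.21 and -0.23. The remaining tested precursors without a call (MIR415, MIR776, MIR779, MIR832, MIR833, MIR848, MIR850, MIR851 and MIR2112) ran between -0.40 and 0.09. Of these, MIR776 passed without rdr2 replicate 3 (-0.58, limma adjusted p 0.0469), while its sign turned with the 75th percentile of all probes (0.22) and with normexp (0.068).

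MIR834, bright on all 3 probes in both groups, had no call: its second probe had 187.4, 219.4 and 319.3 in rdr2, against 261.2, 257.6 and 226.5 in WT, and its 3 log2 differences were 0.10, -0.07 and -0.07. At the edge of the numbering, MIR413, just inside, had 55.8, 53.9 and 53.6 in rdr2, against 58.5, 61.4 and 54.8 in WT. MIR408, just outside, had 10.3, 12.6 and 5.20 in rdr2 on its second probe, against 17.0, 16.4 and 3.90 in WT. Of the 54 tested probes without a call, 39 had a 95% interval that lay within 2-fold either way, and the intervals of the others reached further. Of the 27 precursors without a call, 21 had at least 1 such probe.

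Among 21 precursors with more than 1 tested probe, 16 had all of them on the same side of 0. Differences were negative for 2317 of all 3345 probes tested, so this count cannot show that probes of a precursor agree. The spread between arrays was small for the brighter probes. For the 47 probes that all 6 arrays detected well above background, the median SD on the log2 scale was 0.197 in rdr2 and 0.161 in WT.

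Known partners of these precursors were few on the array. Of 19 listed targets, 2 were on it, NLA and TAS4. TAS4, which miR828 cuts to start small interfering RNAs against MYB mRNAs, fell on both of its tested probes. The second had 1.90, 2.75 and 3.06 in rdr2, against 8.36, 8.04 and 6.33 in WT, with a log2 difference of -1.58 (SE 0.228, limma adjusted p 0.0112). It was well above background on 1 of the 3 rdr2 arrays, and the size depended on the processing: -0.999 with quantile normalization (adjusted p 0.0421) and -0.076 with normexp (adjusted p 0.981). The first had 4.04, 2.01 and 3.11 in rdr2, against 7.78, 7.57 and 7.01 in WT (-1.35, limma adjusted p 0.0301), with 2 rdr2 arrays well above background. MIR828 stayed within -0.28 to -0.15 over its 3 probes, with 6.14, 5.59 and 7.12 in rdr2, against 7.89, 9.29 and 5.95 in WT on the second. The TAS4 call was lost without WT replicate 1 (adjusted p 0.0562), without WT replicate 2 (0.0638) and with the slide as a random block (0.134). NLA, the target of miR827, had no probe past the threshold.

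**Figure D4:**
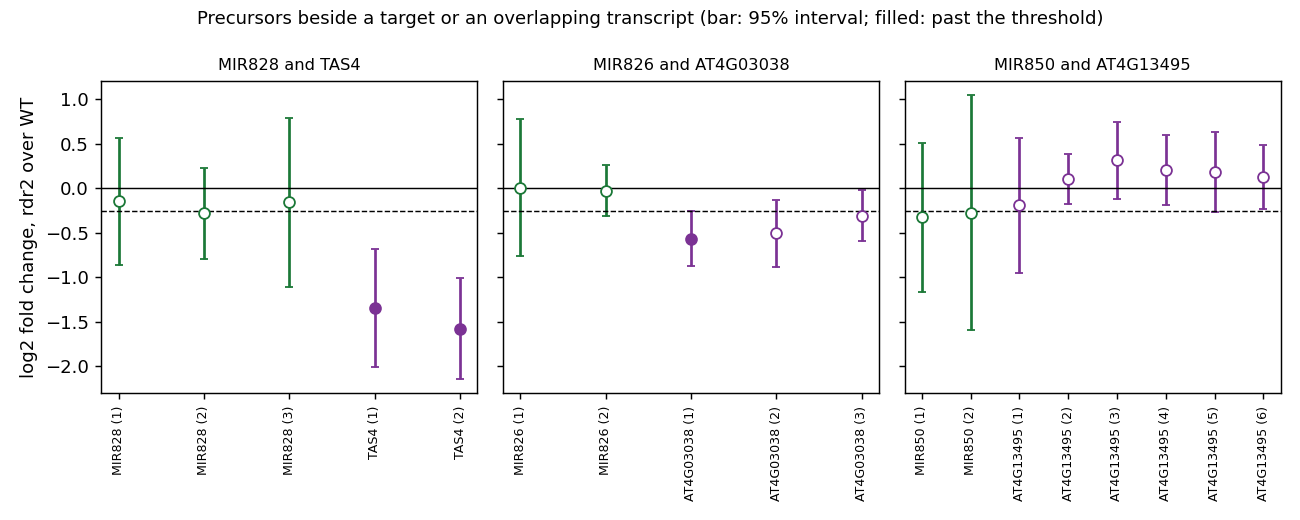
Log2 difference, rdr2 minus WT (y axis), of the tested probes of MIR828 beside TAS4, MIR826 beside AT4G03038 and MIR850 beside AT4G13495. Points are probes, bars are their intervals from limma, and filled points passed the threshold. The tested TAS4 probes are lower in rdr2 and passed, while no MIR828 probe did. Both TAS4 probes entered the test through detection in WT alone, which favours a fall.

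MIR826, whose miRNA targets AOP2 of glucosinolate synthesis, overlaps the noncoding RNA AT4G03038. MIR826 had 8.77, 7.87 and 9.04 in rdr2 on its second probe, against 8.73, 8.86 and 8.53 in WT, with log2 differences of 0.00 and -0.03 on its 2 probes. AT4G03038 fell on 1 of 3 probes, with 15.1, 13.5 and 16.1 in rdr2, against 22.8, 21.0 and 22.2 in WT (-0.57, limma adjusted p 0.0394). Its other probes stood at -0.51 and -0.31 (limma adjusted p 0.0820 and 0.129). Its call was lost when rdr2 replicate 1, rdr2 replicate 2, WT replicate 1 or WT replicate 2 was left out (adjusted p 0.129 to 0.146). It was also lost with the slide as a random block (0.279). The noncoding RNA AT4G13495, which overlaps MIR850 and MIR863, had 6 probes between -0.19 and 0.31, none past the threshold. PKL, a chromatin remodeller that overlaps MIR862, had probes at 0.06, 0.04 and -0.16, none past the threshold.

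Of 20 listed genes of miRNA processing and related silencing, 6 were on the array. In limma, 6 of their 18 probes were lower in rdr2 and 0 higher, against 8.49% and 5.11% of all probes tested. These 6 were the probes of RDR2 and of DCL2, a nuclease of small interfering RNAs (DCL2 log2 differences -1.02, -0.87 and -0.86). The DCL2 call, unlike that of RDR2, was lost without rdr2 replicate 2 (adjusted p 0.0681), without WT replicate 1 (0.0512), without WT replicate 2 (0.0767) and with the slide as a random block (0.112). The median of the 18 probes, those of the mutated gene RDR2 among them, was -0.35, against -0.26 over all probes tested. DCL1, which cuts most miRNAs, stood at -0.08, -0.34 and -0.36, and DCL4 at -0.05, 0.02 and 0.04, none past the threshold.

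**Figure D5:**
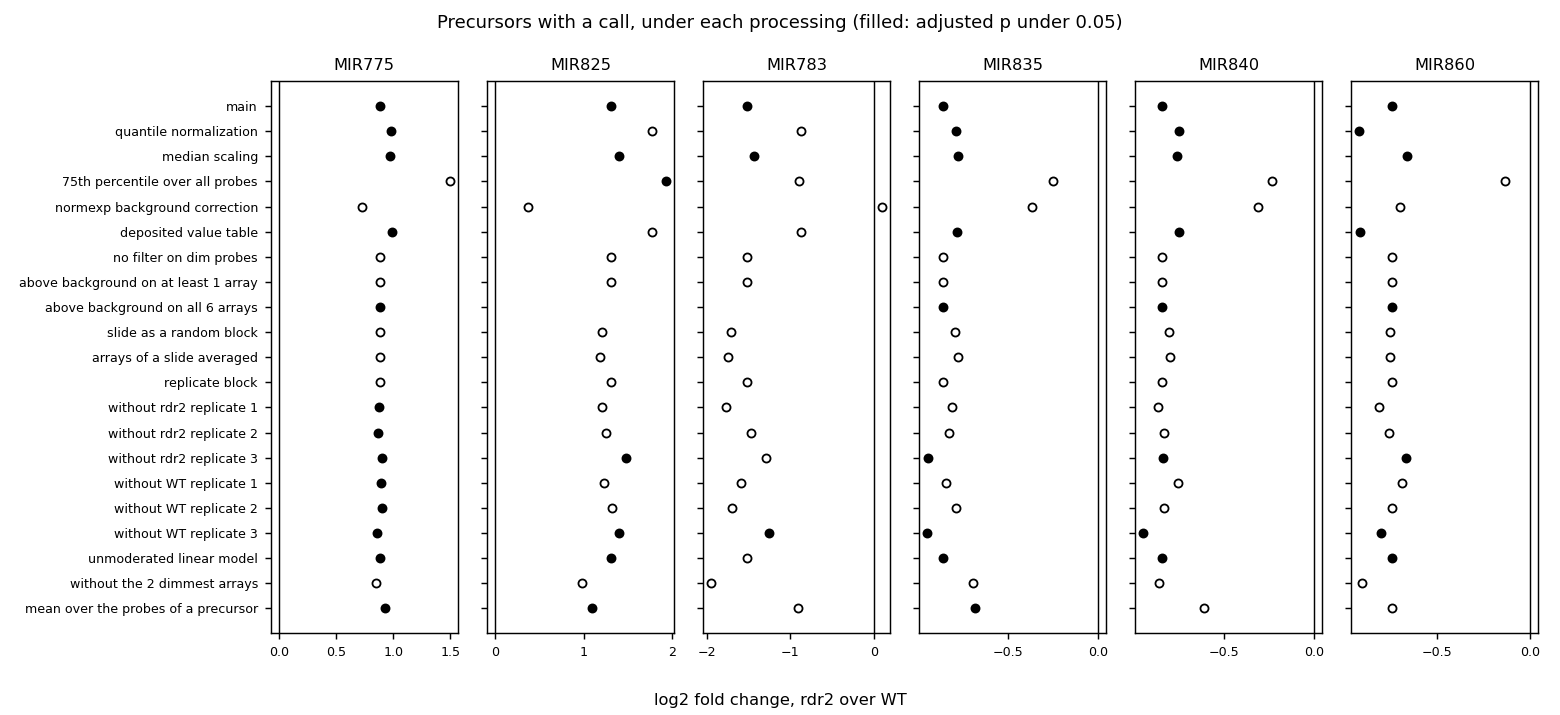
Log2 difference, rdr2 minus WT (x axis), of the 6 precursors with a probe past the threshold, under the reported processing and each alternative (points), filled where the adjusted p was under 0.05. MIR775 passed under 12 of 20 alternatives and MIR783 under 2 of 19, and MIR783 alone has a point of the opposite sign.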

How the data were processed

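RNA of 3 rdr2 and 3 WT inflorescence samples was hybridised, 1 array each, to custom Agilent arrays read in 1 colour. The deposited scanner files hold, per the file headers, a processed signal intensity (background subtracted, then detrended over each array's surface), together with median signal and background intensity and flags for spots well above background. Agilent Feature Extraction made them, in version 10.7.3.1 for rdr2 replicate 3 and in version 10.5.1.1 for the other 5 arrays. The deposited value table holds log2 values, with no account of their making among the sources used here. Quantile normalization of the log2 processed signals, after a floor at 1, gave at least 99.86% of each array's values to within 0.1.

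The members and lists were chosen with earlier results of these data known. For each array, the log2 of the 75th percentile intensity, taken on 2369 probes that all 6 arrays detected well above background, was subtracted from the log2 processed signal. The test, on the 3345 probes that every array of one or both groups detected well above background, was limma 3.58.1 in R 4.3.3 (a linear model with group alone, then eBayes, two-sided), with Benjamini-Hochberg adjustment over all of them. The 536 control spots were left out. Where no array of a group was well above background, a fold is a bound, in which each dim array counts at the smallest signal it detected above background, or at the probe's own signal if that is higher. Precursors with a call and the 12 with the smallest p were given with their values, and the others by ranges. The number of arrays limits the precision. Alternatives were other normalizations, background correction with normexp (offset 50, on median signals, since the files hold no mean signal), the filter on dim probes, the slide or replicate number as a block, each array left out, an unmoderated model and a threshold of 0.01. Leaving out the 2 dimmest arrays was added after the data were seen. The procedure was tested on simulated data. Figures were drawn with matplotlib 3.10.9. No coordinates are printed, because the array's build and that of the RefSeq table differ.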

Additional observations from a re-analysis of the deposited data

How the results depend on the processing

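Of the reported 4 precursor probes higher and 6 lower in rdr2, quantile normalization left 2 higher and 5 lower. The deposited values left 2 and 3, the 75th percentile over all probes 1 and 0, and a threshold of 0.01 1 and 0. The mean over the probes of a precursor gave 2 and 1 precursors. Leaving out the 2 dimmest arrays, an alternative chosen after seeing the data, left 1 rdr2 array, so its counts of calls are not given. The totals of alternatives below include it. Leaving out 1 array at a time gave 1 to 5 higher and 0 to 10 lower, while calls over all probes tested ran between 4.54% and 28.6%. Normexp background correction, no filter on dim probes, a filter of at least 1 array, the slide as a random block, the arrays of a slide averaged and the replicate number as a block each gave 0 and 0 in limma. Calls over all probes tested made up 2.39%, 0.393%, 1.14%, 3.35%, 1.35% and 3.86% there, in the same order. At an unadjusted p under 0.05 these 6 settings had 2 higher and 1 lower, 20 and 14, 6 and 13, 4 and 6, 4 and 6, and 4 and 11. The cause of these losses was not tested. Over all probes, calls higher in rdr2 made up 37.6% as reported, 54.1% after quantile normalization, 50.7% after median scaling, 77.6% where the percentile was taken over all probes, 58.8% after normexp and 55.3% in the deposited values. The log2 difference changed sign to 0.10 for MIR783 with normexp and to 0.046 for AT4G03038 where the 75th percentile came from all probes. Of 118 alternative values for the 6 precursors with a call, 1 changed sign and 42 passed the threshold. Of 530 for the 27 precursors without a call, 91 changed sign and 7 passed. Same-numbered samples share only a number: their deviations correlated at -0.123, -0.120 and -0.152, and no sample correlated best with its own number. The count of 33 precursors detected in WT became 39 with at least 2 of 3 arrays and 44 with at least 1. The 32 tested probes with a WT mean under 10 lie nearest to the background, which limits their folds.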

Other observations

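MIR773 and MIR845b, both outside the test, were each bright on a single array. MIR773 had scaled signals of 0.812, 0.678 and 10.99 in rdr2, against 3.20, 4.09 and 1.04 in WT, so its highest and lowest values both lay in rdr2. MIR845b, whose miRNA is known from pollen to target retrotransposon primer-binding sites, had 0.683, 0.685 and 0.707 in rdr2, against 1.35, 23.2 and 0.579 in WT, where 1 array alone was high. MIR862, which overlaps PKL, was outside the test as well. It had 3.02, 2.50 and 2.07 in rdr2, against 0.808, 0.995 and 1.38 in WT. These signals were low, and it was well above background on 2 arrays in all.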
